A study of Mus musculus with 16 samples.

Results

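The 10 genes described here are the macrophage genes Csf1r, Cd68, C1qa, C1qb, C1qc, Mrc1, Aif1, Cx3cr1 and Tyrobp and the macrophage growth factor Csf1. They were picked by symbol from the 24411 genes of the deposited mouse tables, and all 10 had enough counts to be tested. RNA was sequenced from whole celiac ganglia and tumors of Th-MYCN mice, in which the tyrosine hydroxylase promoter drives human MYCN in neural crest cells (the Th-MYCN line is on a 129/SvJ background). The 16 libraries fell into 5 groups. Ganglia from mice 2 weeks old lacked the transgene (Th-MYCN-/-) with wild-type Runx1t1 (4 libraries, here transgene-free wild-type) or with 1 inactivated Runx1t1 allele (3 libraries, transgene-free het). Other ganglia of that age were homozygous for it (Th-MYCN+/+) with wild-type Runx1t1 (3 libraries, MYCN wild-type) or with 1 inactivated allele (2 libraries, MYCN het). The inactivated allele carries an insertion and came from the knockout line CBB6-Runx1t1tm1Fc/H, which was crossed with Th-MYCN mice. The 4 tumors came from Th-MYCN+/+ mice with wild-type Runx1t1, and their age is not given in the sources used here. Tumors and ganglia therefore differed in both tissue state and possibly age, which cannot be told apart. Both sexes were used. The labels do not say which animal gave each library, so p-values measure only the spread between these samples.

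Macrophages are phagocytes of the myeloid lineage that live in most tissues, peripheral nerve and ganglia included, and that also enter tumors. Their survival depends on the receptor CSF1R, a tyrosine kinase that binds CSF1 or IL34. They are the main source of the 3 chains of C1q, the molecule that opens the classical complement pathway by binding immune complexes and dying cells. TYROBP (DAP12) is the adaptor through which TREM2 and related receptors signal. CD68 is a glycoprotein of endosomes and lysosomes, AIF1 (IBA1) binds actin and calcium, CX3CR1 is the receptor for fractalkine and MRC1 (CD206) is the mannose receptor. In whole tissue, fewer cells of a type and less RNA per cell cannot be told apart.

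Positions are from GENCODE vM21 (GRCm38). The C1q genes sit together on the minus strand of chromosome 4, with C1qb at chr4:136880129-136886187, C1qc at chr4:136889804-136893065 and C1qa at chr4:136895917-136898803, so that all 3 fit in 18675 bases. Csf1 (chr3:107741048-107760469), Cd68 (chr11:69664213-69666153), Aif1 (chr17:35170991-35176068) and Cx3cr1 (chr9:119901616-120069879) are also on the minus strand. Tyrobp (chr7:30413760-30417585) and Mrc1 (chr2:14229392-14332057) are on the plus strand. Csf1r shares 873 exon bases with Hmgxb3 on the other strand. Whether reads were counted by strand is not given in the sources used here, so part of its count could belong to that gene.

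The windows of 250 bases before the start sites of 4 genes that passed as higher in tumors are printed below. C1qb, C1qc and Cd68 passed with all libraries. Aif1 passed without the library set apart below or, with all libraries, once a term for depth was added. The windows can be read against the box of the myeloid factor PU.1 (Spi1), GAGGAA, which reads TTCCTC on the other strand. Sequences are from RefSeq (GRCm38.p6), written 5′ to 3′ on the strand of the gene and ending at the base before the start site. Capitals mark a box on either strand. The windows are chr4:136886201-136886450 for C1qb, chr4:136892915-136893164 for C1qc, chr11:69666171-69666420 for Cd68 and chr17:35176053-35176302 for Aif1, all on the minus strand.
C1qb promoter: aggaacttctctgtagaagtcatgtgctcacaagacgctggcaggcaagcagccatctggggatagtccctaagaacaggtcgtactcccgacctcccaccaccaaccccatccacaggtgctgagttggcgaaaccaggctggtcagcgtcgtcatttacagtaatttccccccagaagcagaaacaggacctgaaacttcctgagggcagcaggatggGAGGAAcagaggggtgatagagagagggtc
C1qc promoter: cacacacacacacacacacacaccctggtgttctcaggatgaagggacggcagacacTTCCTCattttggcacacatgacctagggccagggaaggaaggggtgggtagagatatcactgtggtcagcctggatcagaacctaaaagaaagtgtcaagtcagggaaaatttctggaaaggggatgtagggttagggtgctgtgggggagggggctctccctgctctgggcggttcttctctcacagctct
Cd68 promoter: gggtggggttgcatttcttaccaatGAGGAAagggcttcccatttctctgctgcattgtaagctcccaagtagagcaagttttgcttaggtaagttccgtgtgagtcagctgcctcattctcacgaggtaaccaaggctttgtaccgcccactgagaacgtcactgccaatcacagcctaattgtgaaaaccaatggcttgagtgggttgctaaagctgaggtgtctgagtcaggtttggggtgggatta
Aif1 promoter: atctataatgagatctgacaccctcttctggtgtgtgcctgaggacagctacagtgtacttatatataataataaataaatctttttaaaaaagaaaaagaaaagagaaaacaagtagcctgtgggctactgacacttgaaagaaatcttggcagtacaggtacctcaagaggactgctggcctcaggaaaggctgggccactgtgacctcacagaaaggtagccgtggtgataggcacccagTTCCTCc
Promoters of 7 of the 10 genes were found, and 5 of these held the box (C1qb, C1qc, Cd68, Aif1 and Mrc1), whereas Csf1 and Cx3cr1 held none. The box was counted on both strands. Of 32851 windows of the same length, 7639 (23.3%) held it. The box begins 30 bases before the start of C1qb, 193 before that of C1qc, 225 before that of Cd68 and 7 before that of Aif1, counted from the RefSeq start sites. These differ from the GENCODE gene ends given above, so that the windows of C1qc, Aif1 and Mrc1 reach into the GENCODE spans. The box of Aif1 lies within its span. The window of Cx3cr1 lies wholly within its span, so the lack of a box there does not describe the bases before the GENCODE start. A match describes letters only. Promoters of C1qa, Csf1r and Tyrobp were not analysed here.

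Library totals ran from 10692299 to 38618757 counts. The tumors were all above 20000000, and 6 of the 12 ganglia were below. Runx1t1 itself did not separate the labels, with 2.78 to 4.41 TPM in transgene-free wild-type ganglia and 4.36 to 6.28 in transgene-free het ganglia. TPM gives the abundance of a transcript relative to all transcripts of the library, corrected for length. It read 7.90 to 70.34 TPM in MYCN wild-type ganglia, 8.83 and 16.86 in MYCN het ganglia and 29.51 to 55.81 in tumors. The het groups are therefore named as labelled. Transgene-free wild-type replicate 2 stood apart, since it held lymphocyte RNA. In it the B cell gene Cd79a was at 218.42 TPM and the T cell gene Cd4 at 101.43, and the sum of 10 pan-leukocyte genes was 2555 TPM against 94.1 to 150.6 in the 6 other transgene-free ganglia. This library was also the highest ganglion for all 10 genes described here. Its Csf1r was at 96.61 TPM against 7.40 to 20.53 in the other ganglia. The comparison of tumors with transgene-free ganglia is given with all 16 libraries and again without this one, and the fit is named where a value comes from 1 of them.

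**Figure D1:**
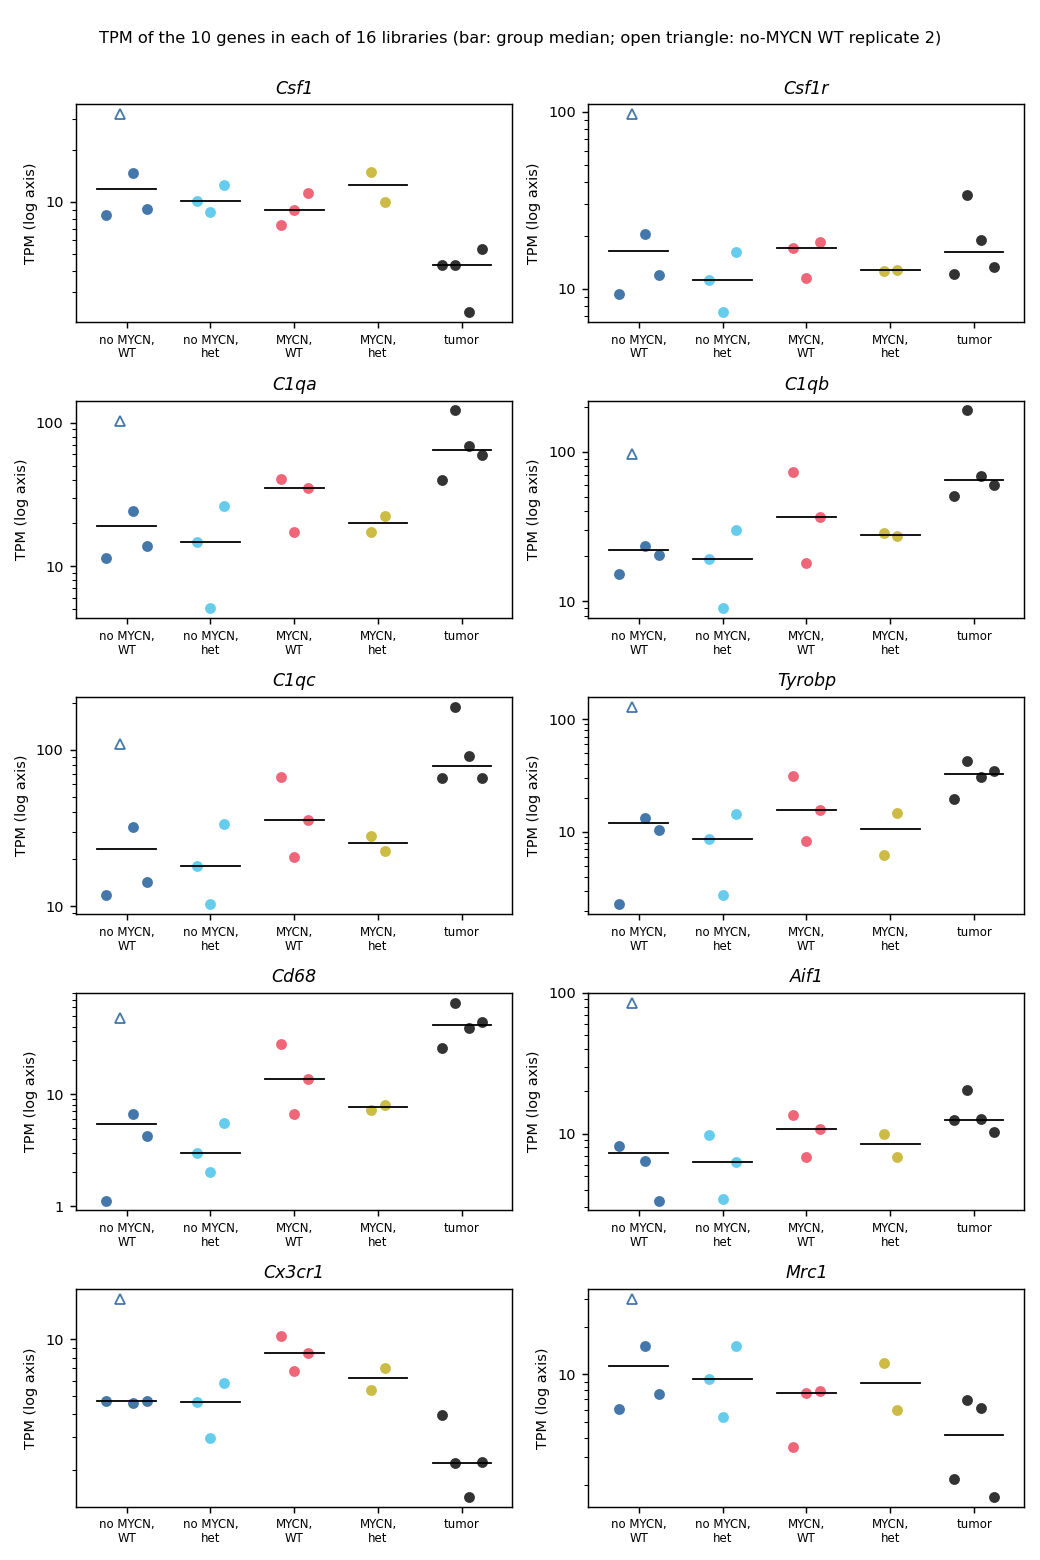
TPM of each gene in each library on a log axis, by group (no MYCN or MYCN, with wild-type or het Runx1t1, and tumor), with a bar at the group median. The open triangle is transgene-free wild-type replicate 2, the highest ganglion for all 10 genes. The 4 tumors lie below every ganglion for Csf1, from 2.30 to 5.35 TPM.

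Against transgene-free ganglia, tumors had more RNA of the C1q chains and Cd68, by 4.06-fold to 8.02-fold with all libraries and by 6.35-fold to 15.8-fold without transgene-free wild-type replicate 2, and less Csf1, by 2.43-fold and 1.96-fold. The receptor Csf1r did not follow the C1q chains when all 16 libraries were used. With all libraries, 5 of the 10 genes passed an adjusted p of 0.05 in edgeR's quasi-likelihood test (4 higher, 1 lower), where 61.4% of all 16665 genes tested did (30.6% higher, 30.9% lower). Without replicate 2, 8 of the 10 passed (7 higher, 1 lower), and the share over 16533 genes was 65.1% (33.4% higher, 31.7% lower). Since most genes differed between these tissues, a share of called members near those shares is no result about the members. The median log2 fold change over all genes was -0.06 with all libraries and 0.01 without replicate 2, and these comparisons share the same tumors.

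**Figure D2:**
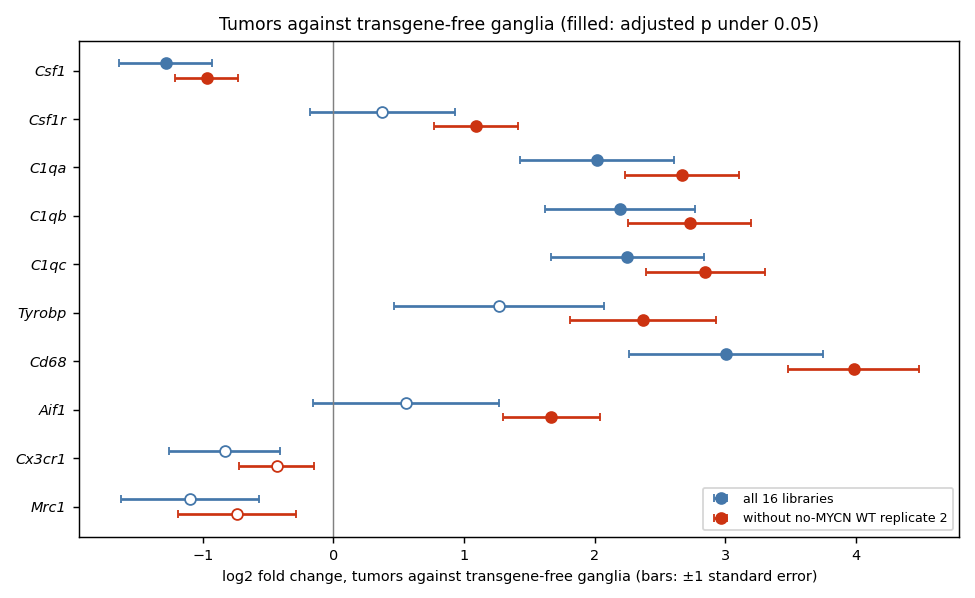
Log2 fold change (±1 standard error) of each gene in tumors against transgene-free ganglia, with all 16 libraries (blue) and without transgene-free wild-type replicate 2 (red). Filled points passed an adjusted p of 0.05. Cd68 reached the highest value, 3.98 without that library, and Csf1 fell in both fits.

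Csf1 encodes the ligand that macrophages need to survive. It read 8.34, 32.10, 14.75 and 9.04 TPM in transgene-free wild-type ganglia and 10.12, 8.77 and 12.54 in transgene-free het ganglia. In MYCN wild-type ganglia it read 7.32, 8.94 and 11.21 TPM, in MYCN het ganglia 14.85 and 10.02, and in tumors 4.29, 4.31, 2.30 and 5.35. All 4 tumors were below all 12 ganglia, and the tumor mean was 4.06 ± 1.28 TPM (SD, n = 4) against 10.6 ± 2.53 (n = 6) in transgene-free ganglia without replicate 2. The log2 fold change was -1.28 (SE 0.356, edgeR adjusted p = 0.00642) with all libraries and -0.97 (SE 0.242, adjusted p = 0.00326) without that one.

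Il34, the other ligand of CSF1R, is not among the 10 genes but belongs to the same axis. Its TPM was 13.62, 6.99, 18.07 and 10.60 in transgene-free wild-type ganglia, 15.01, 11.63 and 13.59 in transgene-free het ganglia, and 0.58, 1.83, 0.08 and 1.05 in tumors. Il34 was thus lower in every tumor than in every ganglion, the MYCN ganglia (5.29 to 15.66) included. Its log2 fold change against transgene-free ganglia was -3.38 (SE 0.610, edgeR adjusted p = 0.000277), and -3.44 (adjusted p = 0.000237) without replicate 2. Csf2ra, a receptor chain for GM-CSF, did not pass either test (adjusted p = 0.345 and 0.0553). The summed TPM of glial genes (944 to 3996 in tumors against 5585 to 7987 in transgene-free ganglia without replicate 2) and of fibroblast genes (177 to 518 against 1741 to 7986) was also lower in tumors. The part of these tissues in the 2 ligands was not tested.

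**Figure D3:**
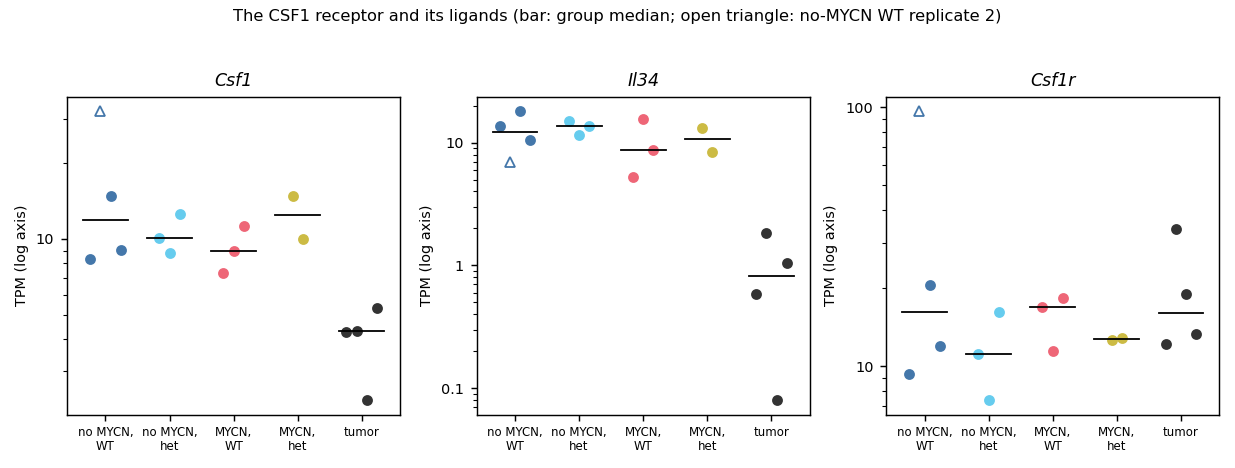
TPM of Csf1, Il34 and their receptor Csf1r in each library on a log axis, with bars at group medians and transgene-free wild-type replicate 2 as an open triangle. Both ligands are lowest in the 4 tumors (Il34 0.08 to 1.83 TPM), while Csf1r in tumors (12.18 to 33.91 TPM) overlaps the ganglia.

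Csf1r, which marks the macrophage lineage, read 9.32, 96.61, 20.53 and 12 TPM in transgene-free wild-type ganglia and 11.18, 7.40 and 16.23 in transgene-free het ganglia. The MYCN wild-type ganglia read 16.99, 11.49 and 18.35 TPM, the MYCN het ganglia 12.60 and 12.85, and the tumors 12.18, 33.91, 18.98 and 13.26. Tumors and ganglia overlapped on this scale, with tumor replicate 2 the highest tumor. With all libraries the log2 fold change against transgene-free ganglia was 0.38 (SE 0.559, edgeR adjusted p = 0.579). Without transgene-free wild-type replicate 2 it was 1.09 (SE 0.324, adjusted p = 0.00951). In the fit of only libraries over 20000000 counts, which also lacks that library, it was 0.97 and did not pass (adjusted p = 0.0648). The direction in the fit with all libraries also rested on tumor replicate 2, without which the value was -0.051. Scaled to the library total without gene length, as CPM, Csf1r was 40.9 ± 21.7 in tumors (SD, n = 4) against 19.5 ± 7.32 (n = 6), and per length it was 19.6 ± 10.01 against 12.8 ± 4.82 TPM, so the 2 scales differ in the size of the gap.

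The 3 C1q chains rose together. C1qc read 11.73, 108.39, 32.07 and 14.21 TPM in transgene-free wild-type ganglia and 18.08, 10.28 and 33.33 in transgene-free het ganglia. It read 66.85, 20.60 and 35.81 TPM in MYCN wild-type ganglia, 28.28 and 22.49 in MYCN het ganglia, and 65.76, 188.43, 90.70 and 66.23 in tumors. Apart from transgene-free wild-type replicate 2, only MYCN wild-type replicate 1 among the ganglia reached the lowest tumors on this scale. The log2 fold change of C1qc against transgene-free ganglia was 2.25 (SE 0.587, edgeR adjusted p = 0.00431) with all libraries and 2.85 (SE 0.458, adjusted p = 0.000114) without that library.

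C1qa and C1qb had much the same pattern. C1qa ran from 5.10 to 26.17 TPM in the transgene-free ganglia other than replicate 2, from 17.25 to 40.26 in MYCN ganglia and from 39.72 to 121.51 in tumors. C1qb ran from 8.96 to 30.09, from 17.97 to 73.07 and from 50.27 to 189.67 TPM in the same groups. Their log2 fold changes were 2.02 (SE 0.589, edgeR adjusted p = 0.00859) and 2.19 (SE 0.575, adjusted p = 0.00448) with all libraries. Without replicate 2 they were 2.67 (adjusted p = 0.000131) and 2.73 (adjusted p = 0.000209). The log2 ratio of C1qa to C1qc overlapped between tumors (-0.73 to -0.15) and ganglia (-1.01 to -0.01), as did that of C1qb to C1qc (-0.39 to 0.01 and -0.45 to 0.53). The mean ratios were lower in tumors than in all ganglia, at -0.48 against -0.33 for C1qa and -0.23 against 0.02 for C1qb. These ratios were not tested. Of the summed TPM of the 9 genes other than Csf1, the chains made up 63.6% to 74.5% in tumors and 43.1% to 63.4% in ganglia.

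Cd68, the lysosomal glycoprotein of phagocytes, had the highest fold change of the 10. It read 1.12, 47.45, 6.64 and 4.25 TPM in transgene-free wild-type ganglia and 3.00, 2.01 and 5.53 in transgene-free het ganglia. It read 27.90, 6.65 and 13.65 TPM in MYCN wild-type ganglia, 7.25 and 8.02 in MYCN het ganglia, and 26.05, 65.56, 39.24 and 43.92 in tumors. Leaving replicate 2 aside, all tumors were above all transgene-free ganglia. The lowest MYCN ganglion was level with the highest of these transgene-free ganglia (6.65 against 6.64 TPM), and MYCN wild-type replicate 1 was above the lowest tumor. On the CPM scale MYCN het replicate 1 (2.75) fell below transgene-free wild-type replicate 3 (2.89), and MYCN wild-type replicate 1 (13.7) fell below every tumor (lowest 15.5). The log2 fold change in tumors against transgene-free ganglia was 3.00 (SE 0.743, edgeR adjusted p = 0.00303), and 3.98 (SE 0.504, adjusted p = 1.59e-05) without that library.

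Tyrobp and Aif1 passed the test without replicate 2 and not with all libraries. With all libraries and a term for depth both passed, and Tyrobp also passed with the replicate number as a block. Tyrobp read 2.27, 129.69, 13.28 and 10.47 TPM in transgene-free wild-type ganglia, 8.72, 2.73 and 14.29 in transgene-free het ganglia and 19.40, 42.41, 30.59 and 34.76 in tumors. The MYCN ganglia ran from 6.21 to 31.39 TPM. Replicate 2 was above every tumor and the other 6 transgene-free ganglia were below them. The log2 fold change of Tyrobp was 1.27 (SE 0.805, edgeR adjusted p = 0.186) with all libraries and 2.37 (SE 0.557, adjusted p = 0.00217) without replicate 2. Aif1 ran from 3.36 to 9.81 TPM in transgene-free ganglia other than replicate 2, where it was 85.26, from 6.79 to 13.61 in MYCN ganglia and from 10.29 to 20.46 in tumors. Its log2 fold change was 0.56 (SE 0.712, adjusted p = 0.517) and 1.67 (SE 0.369, adjusted p = 0.00142) in the same 2 fits.

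Cx3cr1 and Mrc1 did not rise with the others. Cx3cr1 read 4.71, 16.44, 4.57 and 4.67 TPM in transgene-free wild-type ganglia and 4.66, 2.98 and 5.87 in transgene-free het ganglia. It read 10.40, 6.75 and 8.49 TPM in MYCN wild-type ganglia, 5.39 and 7.07 in MYCN het ganglia, and 3.96, 2.18, 1.45 and 2.22 in tumors. On the TPM scale every tumor was below every MYCN ganglion, and tumor replicate 1 overlapped the transgene-free ganglia. On the CPM scale tumor replicate 1 also overlapped the MYCN ganglia, as MYCN het replicate 1 (7.60) was below it. Against transgene-free ganglia the log2 fold change was -0.83 (SE 0.428, edgeR adjusted p = 0.105), and -0.43 (SE 0.289, adjusted p = 0.202) without replicate 2.

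Mrc1, the mannose receptor of resident and perivascular macrophages, read 6.04, 29.94, 15.04 and 7.56 TPM in transgene-free wild-type ganglia, 9.30, 5.36 and 15.15 in transgene-free het ganglia and 2.19, 6.92, 6.17 and 1.70 in tumors. MYCN wild-type ganglia read 3.51, 7.66 and 7.90 TPM and MYCN het ganglia 11.79 and 5.99. Tumors 1 and 4 were below all ganglia and tumors 2 and 3 overlapped them. The log2 fold change was -1.10 (SE 0.529, edgeR adjusted p = 0.0862) with all libraries and -0.74 (SE 0.453, adjusted p = 0.168) without replicate 2. With all libraries, both Cx3cr1 and Mrc1 passed as lower in tumors with the replicate number as a block or with sex as a term. Mrc1 also passed with DESeq2 and without tumor replicate 2, and Cx3cr1 without tumor replicate 1. Neither gene can be said to be unchanged from these tests.

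To set the genes against each other within a library, the TPM of each was divided by that of Csf1r. These log2 ratios are a description and were not tested. Cd68 stood at 0.95 to 1.73 relative to Csf1r in tumors and at -3.06 to 0.72 in all 12 ganglia, with no overlap even when replicate 2 was kept. The ratio of C1qa to Csf1r was 1.71 to 2.17 in tumors and -0.54 to 1.24 in ganglia, again with no overlap. Both ratios in the tumors thus lay above those of the lymphocyte-rich library (-1.03 for Cd68 and 0.08 for C1qa). Tyrobp ran from 0.32 to 1.39 in tumors and from -2.04 to -0.18 in transgene-free ganglia without replicate 2, but replicate 2 (0.42) and MYCN wild-type replicate 1 (0.89) lay within the tumor range. Aif1 overlapped too. Cx3cr1 relative to Csf1r was -3.96 to -1.62 in tumors and -1.23 to -0.71 in MYCN ganglia, and the transgene-free ganglia (-2.55 to -0.98) overlapped the tumors. Mrc1 was -2.96 to -1.62 in tumors, against -0.67 to -0.10 in transgene-free ganglia without replicate 2, but replicate 2 (-1.69) and MYCN wild-type replicate 1 (-2.28) lay within the tumor range. The other MYCN ganglia stood at -1.22 to -0.10.

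**Figure D4:**
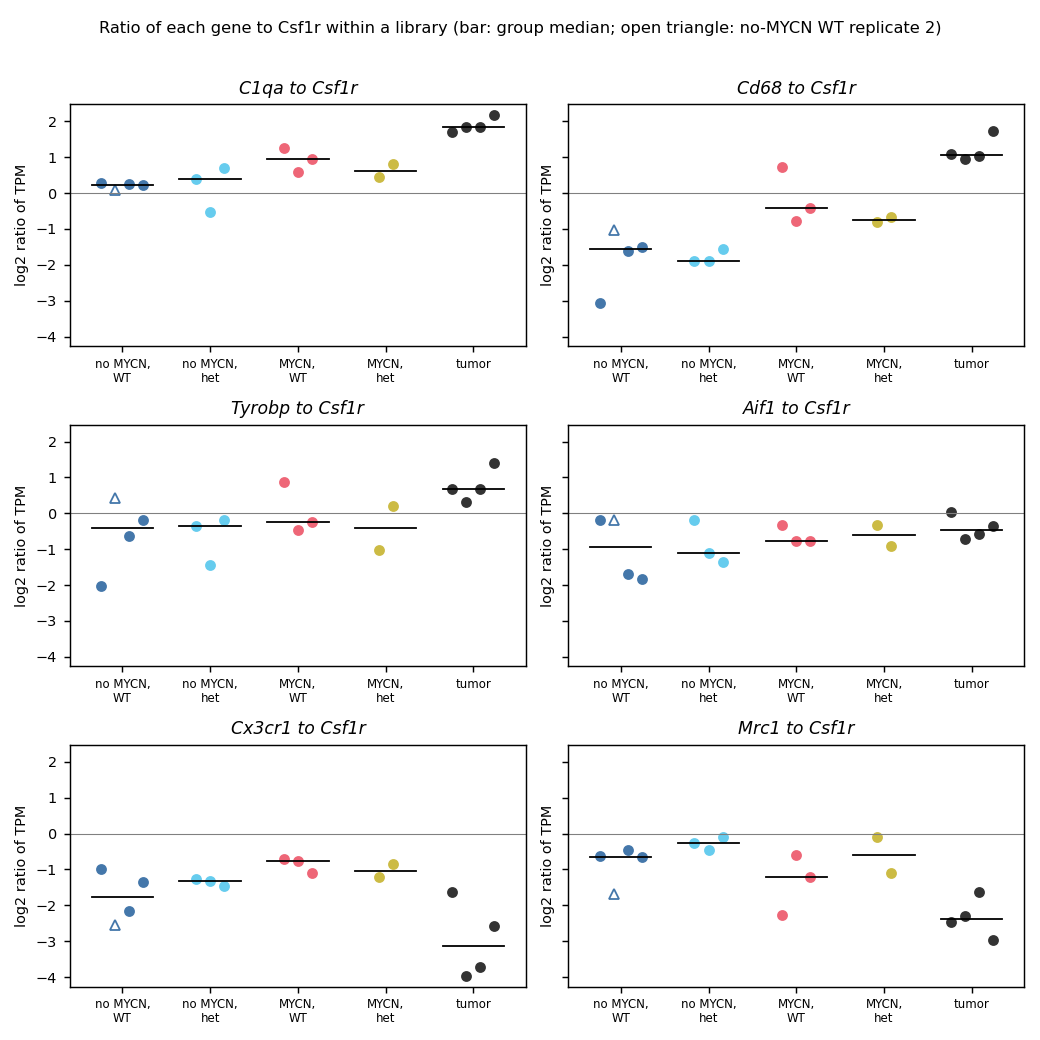
Log2 ratio of the TPM of 6 genes to that of Csf1r within each library, by group, with bars at group medians and transgene-free wild-type replicate 2 as an open triangle. Tumor ratios of C1qa (1.71 to 2.17) and Cd68 (0.95 to 1.73) lie above all ganglia, while tumor ratios of the other 4 genes overlap the ganglia.

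The tumors were next compared with MYCN ganglia, which carry the same transgene. Against MYCN wild-type ganglia, 1 of the 10 genes passed with all libraries, where 34.5% of all genes did (14.0% higher, 20.5% lower). This was Cx3cr1, at a log2 fold change of -1.43 (SE 0.501, edgeR adjusted p = 0.0401). Without transgene-free wild-type replicate 2, which is in neither group but adds to the shared estimate of spread, 5 passed (3 higher, 2 lower) and the share over all genes was 40.4% (17.9% higher, 22.5% lower). These were C1qa (1.63, adjusted p = 0.0281), C1qc (1.72, adjusted p = 0.0277), Cd68 (1.81, adjusted p = 0.0281), Csf1 (-0.84, adjusted p = 0.0283) and Cx3cr1 (-1.42, adjusted p = 0.00510). C1qb read 1.51 (adjusted p = 0.0519). The call of Cx3cr1 with all libraries was lost when any of 8 single libraries was left out, and with a term for depth, where C1qb, C1qc and Cd68 passed instead.

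Against the labelled MYCN het ganglia, 1 of the 10 passed with all libraries, where 45.5% of all genes did (22.0% higher, 23.5% lower). It was C1qc, at 2.55 (SE 0.942, edgeR adjusted p = 0.0401). This call was lost with sex as a term, where Csf1 and Mrc1 passed instead, and without any of MYCN wild-type 4, MYCN het 1, MYCN het 2, transgene-free het 1 or tumor 2. Ddx3y, a gene of the Y chromosome, was above 1 CPM in 3 of 4 tumors and in 0 of 2 MYCN het libraries. It was above that level in 1 of 4 transgene-free wild-type, 1 of 3 transgene-free het and 1 of 3 MYCN wild-type libraries. Sex was thus uneven in every comparison with tumors, and its part was not tested beyond that term. Without replicate 2, 6 passed (5 higher, 1 lower), beside 50.1% of all genes (25.1% higher, 25.0% lower). Cd68 had the highest value of these (3.08, SE 0.761, adjusted p = 0.00456), followed by C1qc (2.56), C1qa (2.40), C1qb (2.27) and Tyrobp (2.18), and Csf1 was lower (-1.12, adjusted p = 0.00834). The MYCN het group holds 2 libraries, both under 20000000 counts, so these values rest on a small sample. Cx3cr1 did not pass here (-0.86 with all libraries, adjusted p = 0.228).

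Among the ganglia, none of the 10 genes passed in any of the comparisons of transgene or Runx1t1 allele. For all MYCN against all transgene-free ganglia, the share of all genes called was 0.0420% with all libraries and 1.16% without replicate 2, and 1574 and 2144 genes had an unadjusted p under 0.05. For MYCN wild-type against transgene-free wild-type ganglia the shares were 0.936% and 4.08% (3302 and 3624 genes at an unadjusted p under 0.05). For MYCN het against MYCN wild-type they were 0.0120% and 0.00605% (2094 and 2742 genes), and for transgene-free het against wild-type both were 0 (687 and 136 genes). DESeq2 called 5 genes in that last comparison with all libraries and none of the 10 in any of these. At an unadjusted p under 0.05 in edgeR, Cd68 and Cx3cr1 stood in the first and second of these comparisons without replicate 2, and Csf1r, Cd68 and Aif1 in the last with all libraries. In these designs few genes of any kind passed, so a count of 0 of 10 members is no result about them.

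Cd68 came nearest to the threshold among the ganglia. Its log2 fold change in MYCN wild-type against transgene-free wild-type ganglia was 2.06 (SE 0.640, edgeR adjusted p = 0.0838) without replicate 2 and 0.13 (SE 0.906, adjusted p = 0.960) with it. Over all MYCN ganglia it was 1.54 (SE 0.472, adjusted p = 0.177) and 0.57 (adjusted p = 0.794). Cx3cr1 read 0.96 (SE 0.363, adjusted p = 0.138) in MYCN wild-type ganglia without replicate 2 and 0.19 (adjusted p = 0.880) with it. MYCN wild-type replicate 1, the shallowest of its group, was the highest MYCN ganglion for the C1q chains, Cd68, Tyrobp, Aif1 and Cx3cr1, while its Csf1 and Mrc1 were the lowest.

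Between the Runx1t1 alleles none of the 10 genes passed. In transgene-free het against wild-type ganglia all 10 values were negative with all libraries (Csf1r -1.67, Cd68 -2.15, each at an edgeR adjusted p of 0.993), and without replicate 2 they lay between -0.26 and 0.11. In MYCN het against MYCN wild-type ganglia, with all libraries, Cd68 read -1.27 (SE 1.14, adjusted p = 0.678) and Csf1r -0.41 (SE 0.834, adjusted p = 0.883). In the test of whether the transgene's effect differed between the alleles, with all libraries, the lowest adjusted p of the 10 was at Csf1 (0.851). The share of all genes called in that test is not given here, so this is no result about the members.

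Genes that work with the 10 were read from lists of known pathways. Each list is given by its counts in tumors against transgene-free ganglia, all libraries first and then without replicate 2, beside the shares over all genes given above. Complement held 5 higher and 1 lower of 18 genes, then 10 higher and 1 lower, with a median log2 fold change of 0.74 and 1.45 (the 3 C1q chains included). C3, the central component that all pathways cleave, read 144.35, 74.55, 503.03 and 219.53 TPM in tumors against 6.54 to 68.17 in transgene-free ganglia other than replicate 2. In that library it read 624.43 TPM. Its log2 fold change was 2.28 (SE 0.960, edgeR adjusted p = 0.0528), and 3.64 (SE 0.718, adjusted p = 0.000594) without replicate 2. Cfb, factor B of the alternative pathway, read 1.98 (adjusted p = 0.0965) and 3.54 (adjusted p = 0.000554). Serping1, the inhibitor of C1r and C1s, did not pass (-1.33, adjusted p = 0.0571, and -1.20, adjusted p = 0.0861).

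Partners of TYROBP and of the Fc receptor gamma chain held 3 higher of 10 genes tested, then 5 of 8, and none lower. Their medians were 1.56 and 2.28. Tyrobp itself is on this list and counts among the higher genes in the fit without replicate 2. Trem2, the lipid-sensing receptor that signals through TYROBP, had 2.77 to 12.16 TPM in tumors against 0.55 to 2.47 in transgene-free ganglia without replicate 2. Its log2 fold change was 2.25 (SE 0.556, edgeR adjusted p = 0.00299) with all libraries and 2.32 (adjusted p = 0.00361) without replicate 2, so this call did not depend on that library. Fcer1g, the gamma chain, rose by 2.12 (adjusted p = 0.0153) and 2.73 (adjusted p = 0.00118). Fc receptors held 4 higher and 1 lower of 6 genes, then 4 higher and none lower. Fcgr4, an activating receptor for IgG counted among the higher genes, ran from 0 to 0.73 TPM in transgene-free ganglia and from 0.52 to 19.63 in tumors, which overlapped at the low end. Being at or near 0 in transgene-free ganglia, it may have passed the filter on low counts only through libraries where it is high. Its values are therefore a description with no test.

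Myeloid transcription factors held 2 higher and 2 lower of 12, then 6 higher and 2 lower, with medians of -0.17 and 1.14. Batf3, which is best known in dendritic cells, rose by 2.17 (edgeR adjusted p = 0.0453) and 2.74 (adjusted p = 0.0101). Cebpb, a factor of acute-phase and myeloid genes, fell by 1.75 (adjusted p = 0.0152) and 1.58 (adjusted p = 0.0243) on the log2 scale. Phagocyte lysosome genes were split, with 2 higher and 6 lower of 16, then 7 higher and 5 lower (medians -0.26 and -0.19). Cd68 is on this list and counts among the higher genes in both fits. Gpnmb rose by 3.32 (adjusted p = 0.000347) and 3.62 (adjusted p = 0.000165), whereas Ctsd, the protease cathepsin D that most cells make, read -0.09 and -0.06 without passing. Lyz2, the lysozyme of myeloid cells, read 1.98 (adjusted p = 0.0991) and 3.86 (adjusted p = 6.55e-05).

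Resident and perivascular macrophage genes, Mrc1 among them, held 3 higher and 3 lower of 17, then 6 higher and 3 lower (medians 0.10 and 0.04). The scavenger receptor Msr1 rose by 2.04 (SE 0.794, edgeR adjusted p = 0.0382) and 3.01 (adjusted p = 0.000614). Marco, another scavenger receptor, did not pass with all libraries (1.26, adjusted p = 0.484). It was at 1.19 to 10.22 TPM in tumors against 0 to 0.59 in transgene-free ganglia other than replicate 2. Being at or near 0 there, it may have passed the filter on low counts in the fit without replicate 2 only through libraries where it is high. Its values in that fit are therefore a description with no test, although it is counted among the higher genes. Pf4, a chemokine of platelets and tissue macrophages, fell by 1.99 (adjusted p = 0.0192) and 2.02 (adjusted p = 0.0203). Stab1, a scavenger receptor of macrophages and sinusoidal endothelium, did not pass (-0.29 and 0.01). Microglia signature genes, which include Aif1 and Cx3cr1, held 1 higher and 3 lower of 14, then 4 higher and 3 lower (medians -0.63 and -0.27). Fcrls fell by 3.22 (adjusted p = 0.00176) and 3.20 (adjusted p = 0.00214).

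**Figure D5:**
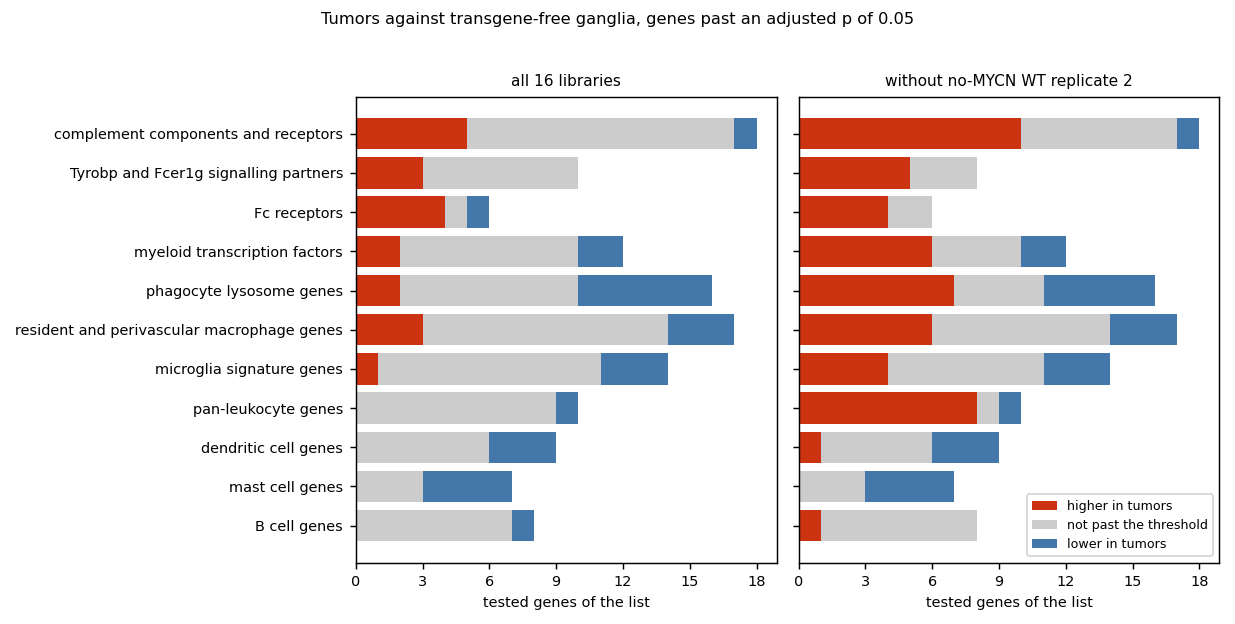
Number of tested genes of 11 lists that were higher (red), lower (blue) or not past an adjusted p of 0.05 (grey) in tumors against transgene-free ganglia, with all 16 libraries and without transgene-free wild-type replicate 2. Complement goes from 5 to 10 higher genes and pan-leukocyte genes from 0 to 8.

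Markers of other blood cells were read in the same way, beside the shares over all genes (61.4% called with all libraries and 65.1% without replicate 2). Pan-leukocyte genes held none higher and 1 lower of 10, then 8 higher and 1 lower without replicate 2 (medians -0.32 and 1.63), and their summed TPM was 73.7 to 188.9 in tumors against 94.1 to 150.6. The only lower one in both fits was Coro1a, which neurons also express. Laptm5, a lysosomal protein of blood cells, read 0.93 (edgeR adjusted p = 0.328) with all libraries and rose by 2.27 (adjusted p = 0.000281) without replicate 2. B cell genes held 1 lower of 8 (Cd79a), then 1 higher (Blnk). Their summed TPM was 2.55 to 7.29 in tumors against 4.50 to 10.01 and 753 in replicate 2. The defining B cell gene Cd79a was at 0.06 to 0.78 TPM in tumors. T cell genes held 1 lower of 11 (Thy1), then 3 higher and 1 lower of 8. Chemokine genes for monocytes, Cx3cr1 included, held 3 lower of 11 and then of 10, and none higher. Among the lower ones, Ccl12 fell by 4.44 (adjusted p = 0.00687) and 3.90 (adjusted p = 0.00938). Cxcl12 fell by 2.71 (adjusted p = 0.00312) and 2.29 (adjusted p = 0.00333). Levels of Ccl12 are not given here, so it may have passed the filter on low counts only through ganglia where it is high. The part of other leukocytes in the values of the 10 genes was not tested.

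The genes most like the 9 macrophage genes over the 16 libraries were found by Pearson correlation of log2(TPM + 1) with the mean of their z-scores, over 14676 candidates. Dock10 came first (r = 0.966), followed by the lysosomal protease Ctss (0.964), properdin, Cfp (0.958), and Spcs3 (0.957), a subunit of the signal peptidase that cells of all kinds use. Without replicate 2, over 15 libraries, Dock10 (0.933) and Ctss (0.932) again led, with Fam53a (0.928) next, and 7 of the 10 highest were shared with the first list. Libraries of 5 groups and 2 depths share these points, so the values describe the pattern and no p is given. Taken singly over 16 libraries, the gene nearest to Csf1 was Tyk2 (0.973) and that nearest to Csf1r was Cybb (0.975), the catalytic subunit of the phagocyte oxidase. Over the 15 libraries without replicate 2 these were Tyk2 (0.960) and Apbb1ip (0.953), with Cybb next to Csf1r after it (0.937). Those nearest to Cd68 were Chd1 (0.984), a chromatin remodeler, Med13 (0.982), a subunit of the Mediator complex, and the centrosome gene Cntrl (0.973), none of them a macrophage marker.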

How the data were processed

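Whole-tissue RNA from mouse ganglia and tumors was sequenced (the labels give polyA RNA, the methods a stranded total RNA kit). The authors aligned reads to mm10 with STAR, used SAMtools and quantified genes with RSEM, and deposited expected counts and TPM per gene for 16 libraries. The expected counts, which need not be whole, were rounded. They were filtered with filterByExpr, scaled by TMM and fitted in edgeR 4.0.16 (quasi-likelihood test, R 4.3.3) with all 5 groups in 1 fit, and p-values were adjusted over all genes tested by Benjamini-Hochberg at 0.05. The transgene-free side of the main comparison is the mean of its 2 group means. Errors are SE = |log2 fold change|/√F. Deposited TPM served for levels and ratios. Figures used matplotlib 3.10.9. The fit was also run on simulated data, whose outcome is not given here, and no result above rests on it.

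Column headers that read Hom for Runx1t1 were matched to labels that give a wild-type allele, and 0 columns of per-sample values were left unused. No pair of libraries was identical. Columns of the authors' own comparisons were not found in the tables. The 10 genes and the 27 gene lists were chosen with earlier results of these data known. Named genes were the 10, Runx1t1, the markers Ptprc, Cd4, Cd79a and Dntt, and up to 4 per list: the 2 with the highest mean TPM and the 2 with the largest change among those called, at a mean TPM of at least 1, apart from a few that are not reported here. Likeness used a pseudocount of 1. Alternatives were upper-quartile or DESeq2 1.42.0 scaling, no filter or 10 counts in every library, DESeq2, a replicate block, only the groups compared and each library left out. Terms for depth or sex and a fit of libraries over 20000000 counts were added after the data were seen.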

Additional observations from a re-analysis of the deposited data

Results flagged for a closer look

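In groups of 4 libraries, a value was singled out when its gap to the nearest library, divided by the range, passed Dixon's 95% critical value. This was done for the 10 genes in 2 groups, 20 tests in all, of which chance gives about 1 in 20. It singled out 8 values, and 7 of them are transgene-free wild-type replicate 2: Csf1r at 96.61 TPM, C1qa at 101.96, C1qb at 96.26, Tyrobp at 129.69, Cd68 at 47.45, Aif1 at 85.26 and Cx3cr1 at 16.44. In the same library the leukocyte gene Ptprc was at 230.46 TPM and Dntt, a gene of immature lymphocytes, at 1.54. The next highest of the group were 20.53 for Csf1r and 4.71 for Cx3cr1. The remaining value was C1qb at 189.67 TPM in tumor replicate 2, where the nearest tumor was at 68.99.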

How the results depend on the processing

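Leaving out transgene-free wild-type replicate 2 moved more member calls than any scaling or filter. Members called with all libraries were 5 (tumors against transgene-free ganglia), 1 (against MYCN wild-type) and 1 (against MYCN het). Leaving out each library gave 5 to 8, 0 to 5 and 0 to 6. All-gene counts then ran from 9520 to 10755, from 3549 to 6755 and from 4313 to 8275, and for ganglia from 0 to 720 (MYCN against transgene-free, 7 with all), 0 to 1811 (MYCN wild-type against transgene-free wild-type, 156) and 0 to 320 (MYCN het against MYCN wild-type, 2). The replicate block gave 8, 1 and 5 members in the 3 comparisons with tumors. Beside them, 4850, 1961 and 3627 of all genes were higher and 5118, 3077 and 3949 lower. For those ganglion comparisons the block gave 0, 0 and 1 genes. Same-numbered libraries did not deviate together (25 pairs, r from -0.273 to 0.308, and 5 of 16 libraries best with their own number), so the numbers were not taken to pair them. In the ganglia, numbers 1 and 2 were all under and numbers 3 and 4 all over 20000000 counts, so number and depth cannot be told apart there. Against MYCN wild-type, members called were 2 with DESeq2, beside 3041 higher and 3808 lower of all genes. They were 3 with depth (Cx3cr1 lost), beside 2933 and 3484, and 3 with only the groups compared, beside 1759 and 2505. In libraries over 20000000 counts they were 5, beside 3376 and 3725. Against MYCN het they were 2 with upper-quartile scaling, beside 3635 higher and 4007 lower of all genes, and 2 with sex, beside 3164 and 3316. With 10 counts in every library they were 4, beside 3432 and 3314. They were 5 with DESeq2, beside 4146 and 4202, and 5 with depth, beside 3746 and 3554. With only the groups compared they were 6, beside 3942 and 3596. For the ganglia, gene counts were 18, 238 and 1 (upper quartile), 356, 1285 and 264 (DESeq2), 0, 308 and 0 (depth) and 0, 0 and 0 (only the groups compared). The first was also 13 with DESeq2 size factors, 19 with no filter and 2 with 10 counts. The second was 50 with sex, and the third 1 with no filter, 4 with 10 counts and 0 with sex. DESeq2 called 5 genes in transgene-free het against wild-type.

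Directions were compared under the alternatives for the comparisons with tumors and of all MYCN with transgene-free ganglia. The fit limited to libraries with high totals was the exception, run only for tumors against transgene-free and against MYCN wild-type ganglia. No value past the threshold turned. Csf1r in tumors against transgene-free ganglia was -0.051 without tumor replicate 2 and 1.09 without transgene-free wild-type replicate 2, and Mrc1 in tumors against MYCN wild-type ran from -0.55 to 0.082 over the libraries left out (0.034 without tumor 1). In MYCN against transgene-free ganglia, depth gave C1qa -0.19, C1qb -0.025 and C1qc -0.18, and sex gave Tyrobp 0.29 and Aif1 0.051. Leaving out libraries there turned C1qa (lowest -0.19, highest 0.65), C1qb (-0.049 to 0.84), C1qc (-0.18 to 0.71), Csf1 (-0.40 to 0.0083), Csf1r (-0.69 to 0.17), Tyrobp (-0.81 to 0.67) and Aif1 (-0.68 to 0.61). In the other ganglion comparisons only the fit without replicate 2 was read for single genes. There MYCN wild-type against transgene-free wild-type turned from -1.17 to 0.24 for Csf1r, -0.28 to 0.98 for C1qa, -1.06 to 1.11 for Tyrobp and -1.31 to 0.88 for Aif1. Transgene-free het against wild-type turned from -1.09 to 0.077 for C1qc, -2.09 (unadjusted p = 0.0442) to 0.11 for Aif1 and -0.63 to 0.059 for Mrc1. The cause was not tested. Cd68 and Tyrobp, at 6 and 4 counts in transgene-free wild-type replicate 1, were not tested when 10 counts were asked of every library.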

Other observations

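Mast cells and dendritic cells are myeloid lineages apart from macrophages. Of all genes tested, 30.9% were lower in tumors than in transgene-free ganglia with all libraries and 31.7% without replicate 2, and the counts of these short lists are to be read beside those shares. Mast cell genes held 4 lower of 7 and none higher in both fits. The chymase Mcpt4 ran from 0.18 to 17.07 TPM in transgene-free ganglia other than replicate 2 and from 0 to 0.31 in tumors. Being at or near 0 in tumors, it may have passed the filter on low counts only through libraries where it is high. Its values are therefore a description with no test, although it is counted among the lower genes. Kit, which mast cells share with melanocytes and some progenitors, did not pass (log2 fold change 0.27, edgeR adjusted p = 0.253, and 0.36, adjusted p = 0.104). Dendritic cell genes held 3 lower of 9, near the share over all genes, then 3 lower and 1 higher. Flt3, the growth factor receptor of dendritic cells, fell by 3.84 (adjusted p = 0.00999) and 2.74 (adjusted p = 0.0136). Levels of Flt3 are not given here, so it may have passed the filter on low counts only through ganglia where it is high. Itgax, an integrin that macrophages also make, read 1.65 (adjusted p = 0.219) and 3.52 (adjusted p = 0.00229) in the fits with and without replicate 2.

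Activation genes were read as an inflammatory and an alternative class. The counts of every list in this paragraph are to be read beside the shares over all genes. Of all genes, 30.6% were higher in tumors with all libraries and 33.4% without replicate 2, and the shares of lower genes are given above. Of inflammatory genes 1 of 10 was higher, then 4 of 8 without replicate 2, and none lower. Of alternative activation genes 4 were higher and 3 lower of 13 in both fits. Mmp12, the macrophage elastase, was at 1.14 to 9.39 TPM in tumors against 0 to 0.17 in transgene-free ganglia other than replicate 2. Being at or near 0 in those ganglia, it may have passed the filter on low counts only through libraries where it is high. Its values are therefore a description with no test, although it is counted among the higher genes. Monocyte genes held 1 lower of 10, then of 9, and none higher apart from Treml4, which is set aside here. Their summed TPM overlapped between tumors (43.3 to 179.1) and transgene-free ganglia other than replicate 2 (85.6 to 361.1). Treml4, a receptor of nonclassical monocytes and some macrophages, was listed at 0 in all 6 of those ganglia, at 9.75 TPM in replicate 2 and at 2.07 to 3.94 TPM in tumors. Being at 0 in those ganglia, it passed the filter on low counts through other libraries, so its values are a description with no test. Engulfment genes held 6 lower of 14, then 3 higher and 5 lower. Among them the bridging protein Gas6 fell by 2.29 on the log2 scale (edgeR adjusted p = 0.000110 with all libraries) and its receptor Tyro3, which neural cells express, by 3.72 (adjusted p = 0.000104). MHC class II genes held 1 lower of 7 in both fits, H2-DMa.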
